A study of Pyrus calleryana with 9 samples.

Results

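The 2 genes described here, Chr10.g15067 and Chr5.g05827, encode predicted gibberellin 2-oxidases of pear, and they were picked from the 59552 genes of the expression table because their transcript levels fell at different stages of cold stratification. The annotation puts 20 genes under the name Gibberellin 2-beta-dioxygenase, and the other 18 served as background. The falls of both genes are therefore given as a description, without a test. RNA came from whole seeds of callery pear (Pyrus calleryana Decne), a rootstock species, that had taken up water and were then kept moist in the cold for 0, 20 or 50 d. The 0 d seeds were imbibed but never chilled, so all 3 groups share the imbibition and differ in the time in the cold. Each stage had 3 biological replicates (A, B and C), each a pool of seeds from trees of a single garden, and RNA-seq gave 1 library per replicate, 9 in all. A whole seed pools embryo, endosperm and seed coat, and in such bulk RNA fewer cells of a type and less RNA per cell cannot be told apart.

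Gibberellins (GAs) are the hormones that promote seed germination, and abscisic acid opposes them. Gibberellin 2-oxidases lower the pool of active GAs by adding a hydroxyl group at the 2β position. An active GA changed in this way is no longer bound well by the receptor. Which GAs the products of the 2 genes act on was not examined. Gibberellin 2-oxidases work against the gibberellin 20-oxidases and 3-oxidases, which make the active hormone. All of these oxidases carry an N-terminal domain and an iron- and 2-oxoglutarate-binding oxygenase domain.

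Chr10.g15067 had its best Swissprot match in the pea enzyme, GA 2-oxidase 1 (SLENDER). It lies on the forward strand of chromosome 10 from 23714779 to 23716730 in the Pyrus betulifolia assembly that the authors used, a span of 1952 bases with a gene model length of 1279 bases, and it carries both domains. Chr5.g05827 had its best match in GA 2-oxidase 8 of Arabidopsis and lies on the forward strand of chromosome 5 from 35822572 to 35824357, with a gene model length of 555 bases. Only the N-terminal domain was annotated in it. The expression table gives gene boundaries and lengths but no exons. The study's qRT-PCR primers for Chr10.g15067, which it names GA2ox1, are printed because they are the only sequences of it at hand; they are 20 and 23 bases long, no base is singled out by capitals, and the qRT-PCR values were not analysed here.
Chr10.g15067 forward primer: agccgcataaatcacagcac
Chr10.g15067 reverse primer: acctatcctgaatcctgagtact

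The counts assigned to genes summed to 13893019 to 16228340 per library. Over the 28339 genes that had enough counts to be tested, 2 libraries stood apart from their stage: 20 d replicate B correlated with A and C at 0.883 and 0.892, where A and C reached 0.975, and 50 d replicate C correlated with A and B at 0.900 and 0.924, where A and B reached 0.962 (Pearson r of log2 CPM, counts scaled to library size). Summed FPKM of 22 annotated seed reserve genes (storage globulins, albumins and oleosins), all detected, had a median of 24400 at 0 d, 16200 at 20 d and 3370 at 50 d. The ranges were 14700 to 27700, 14800 to 18700 and 2470 to 5880, so the 50 d libraries lay below all others. For 33 chlorophyll a-b binding protein genes, 29 of them detected, the sums ran from 37.2 to 52.1 at 0 d, from 43.7 to 64.7 at 20 d and from 158 to 263 at 50 d. For 15 genes of flavan-3-ol synthesis and transport that mark the seed coat, all detected, they ran from 56.4 to 76.7, from 28.6 to 36.3 and from 87.2 to 151. Over the whole period the seed reserve sums thus fell, as both genes described here did. Between 0 d and 20 d the ranges of these sums overlapped, as did those of Chr5.g05827 but not those of Chr10.g15067. The name patterns of the list left out Chr12.g35468, a basic 7S globulin match named below for its likeness to Chr10.g15067. Its mean FPKM were 676 ± 264, 75.5 ± 32.0 and 14.3 ± 7.7 over the stages (SD, n = 3), without overlap between stages. The sums of the other 2 lists were highest at 50 d. From 0 d to 20 d the seed coat sums fell without overlap, while the chlorophyll a-b binding protein sums overlapped. The part of tissue makeup in the falls of both genes was not tested.

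Chr10.g15067 was one of the more abundant transcripts of the unchilled seed. At 0 d it had 682, 387 and 410 FPKM (fragments per kilobase of transcript, scaled to the library) in replicates A, B and C, which placed it between rank 219 and rank 373 among all genes of a library. At 20 d it had 69.0, 119 and 96.8 FPKM, at ranks 1275 to 1751. At 50 d it had 12.5, 20.6 and 29.5 FPKM, at ranks 5210 to 9682. No library of one stage reached the range of another, and within a stage the highest library exceeded the lowest by 1.76-fold, 1.72-fold and 2.36-fold.

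These levels rest on many reads. The counts of Chr10.g15067 were 10766, 7951 and 7147 at 0 d, 1381, 2105 and 1901 at 20 d, and 305, 442 and 538 at 50 d. The stages' mean FPKM were 493 ± 164, 94.8 ± 24.9 and 20.9 ± 8.51 (SD, n = 3). Set against the library sizes, the summed counts were 4.86-fold lower at 20 d than at 0 d (95% counting interval 4.72 to 5.0) and 4.73-fold lower at 50 d than at 20 d (4.45 to 5.03), so that 23.0-fold less remained at 50 d than at 0 d (21.7 to 24.3). These intervals cover counting error only, and the spread between replicates was wider.

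The edgeR fit over all 9 libraries gave Chr10.g15067 log2 fold changes of -2.29 (SE 0.39) from 0 d to 20 d and -2.21 (SE 0.39) from 20 d to 50 d, the later stage over the earlier one. Over the whole period the value was -4.50 (SE 0.43). The fall was thus divided almost evenly, with 50.9% of the log2 change in the first interval and 49.1% in the second, although the second interval was the longer one. Without 20 d replicate B, the values were -2.58 and -1.98, and without 50 d replicate C they were -2.40 and -2.45.

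Chr5.g05827 was a weakly expressed gene with another course. At 0 d it had 6.28, 5.05 and 5.82 FPKM in replicates A, B and C, and at 20 d it still had 5.18, 4.42 and 4.34 FPKM. These 2 ranges overlapped. At 50 d only 0.284, 0.107 and 0.380 FPKM were left, far below every earlier library. The mean FPKM were 5.72 ± 0.621, 4.65 ± 0.464 and 0.257 ± 0.138 (SD, n = 3).

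Its short model and low level left few reads behind these values. The counts of Chr5.g05827 were 43, 45 and 44 at 0 d, 45, 34 and 37 at 20 d, and 3, 1 and 3 at 50 d. The summed counts per library size were 1.15-fold lower at 20 d than at 0 d, with a 95% counting interval of 0.89 to 1.49 that includes no change. From 20 d to 50 d they were 18.7-fold lower, but so few reads were left at 50 d that the interval ran from 8.79 to 47.5. The last value was thus known less well than for Chr10.g15067, which still had 305 or more counts in each 50 d library.

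In the edgeR fit the log2 fold change of Chr5.g05827 was -0.22 (SE 0.43) from 0 d to 20 d and -4.14 (SE 0.55) from 20 d to 50 d, and it was -4.35 (SE 0.55) over the whole period. Of that change, 4.95% fell in the first interval and 95.1% in the second. Without 20 d replicate B the 2 interval values were -0.28 and -4.13, and without 50 d replicate C they were -0.32 and -4.38. Both genes ended at a similar fold below their 0 d level, 23.0-fold and 21.5-fold, the latter with a counting interval of 10.2 to 54.6. They reached it by different routes, as the rule that chose them asked.

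**Figure D1:**
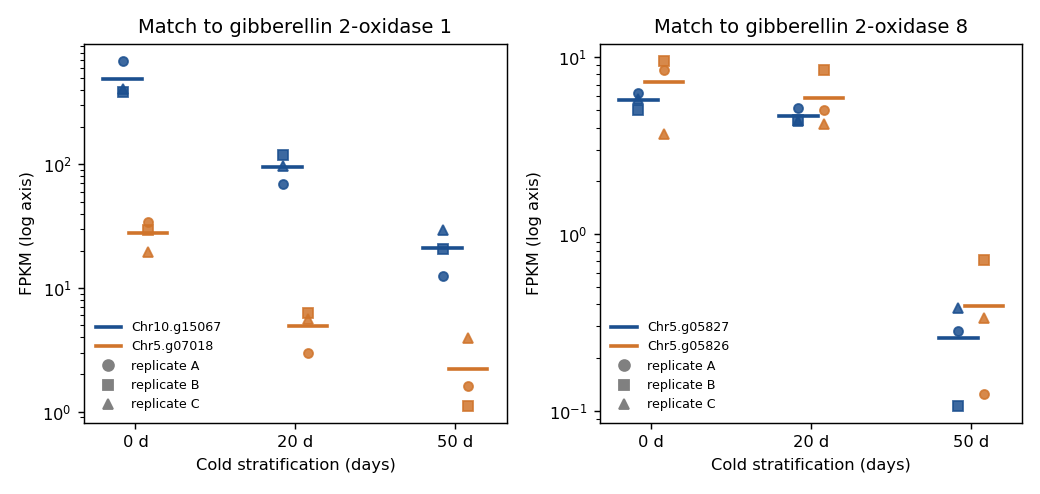
FPKM on a log axis of Chr10.g15067 and Chr5.g07018 (left) and of Chr5.g05827 and Chr5.g05826 (right) against days of cold stratification, with each marker 1 library, its shape the replicate and each line the mean of 3 libraries. Chr10.g15067 fell at both steps, from a mean of 493 through 94.8 to 20.9 FPKM, whereas Chr5.g05827 stayed near 5 FPKM until 20 d and was at most 0.380 FPKM at 50 d.

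Directly after Chr5.g05827 on the same strand lies Chr5.g05826, from 35824414 to 35825297, which also matches GA 2-oxidase 8 of Arabidopsis. Only 56 bases separate the models. Chr5.g05827 holds the N-terminal domain alone, and Chr5.g05826, with a gene model length of 420 bases, holds the oxygenase domain alone. Their lengths sum to 975 bases, inside the 942 to 1350 bases of the 15 family members that carry both domains. The other 5 members carry 1 domain, and among these only the adjoining Chr11.g12478 and Chr11.g12479, which had no counts in any library, form another such pair with the N-terminal model first. Whether the chromosome 5 models are 1 gene was not tested.

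**Figure D2:**
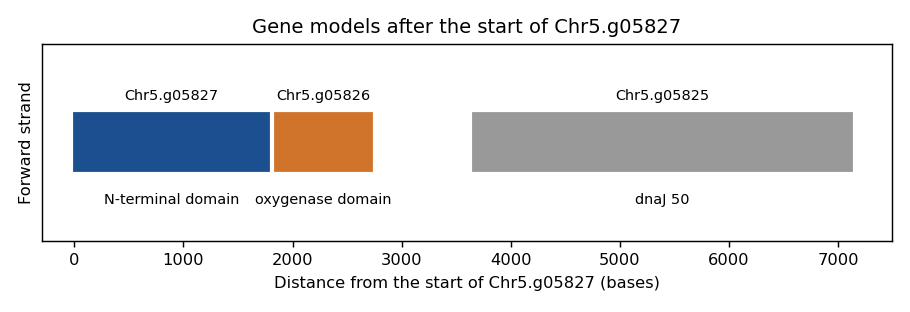
Extent of the 3 gene models that follow the start of Chr5.g05827 on the forward strand of chromosome 5, in bases from that start, each block 1 model with the domain or annotation it carries. Chr5.g05826 begins 56 bases after Chr5.g05827 ends, and the chaperone gene Chr5.g05825 begins 1871 bases after the end of Chr5.g05827.

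Chr5.g05826 held its level until 20 d and then fell. It had 8.49, 9.49 and 3.67 FPKM at 0 d, 5.02, 8.41 and 4.19 FPKM at 20 d, and 0.125, 0.710 and 0.334 FPKM at 50 d. As with Chr5.g05827, the first 2 stages overlapped and the last lay below both. Under edgeR's quasi-likelihood test with Benjamini-Hochberg adjustment, its log2 fold change from 20 d to 50 d was -3.88 (SE 0.70, adjusted p = 0.00852), and from 0 d to 20 d it was -0.22 (SE 0.56, adjusted p = 0.791). Over the whole period it fell by 4.10 on the log2 scale (adjusted p = 0.000777). The call from 20 d to 50 d was lost in every fit that left out 1 of the 9 libraries and in the fit of the 2 stages alone, with adjusted p of at most 0.0331 over all alternatives, while its direction stayed.

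A gene was called a DEG where the edgeR adjusted p was at most 0.01, the log2 fold change at least 1 in either direction and the mean FPKM at least 1 in 1 of the stages compared. The 20 gibberellin 2-oxidase genes comprised 10 with a match to GA2ox8, 4 to GA2ox2, 2 to GA2ox1, 1 each to GA2ox6 and GA2ox7, and 2 with no number in the match. Of these genes 15 had at least 1 count and 5 had none. Only 8 passed the filter on low counts, both genes described above and 6 others, and the 7 with counts below the filter had at most 73 counts over all libraries and at most 2.58 FPKM in any of them. The highest of these 7 was Contig55.g59428, a GA2ox8 match with 1, 0 and 2 counts at 0 d, 8, 6 and 3 at 20 d, and 22, 9 and 22 at 50 d.

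Among the 6 others that were tested, 1 was lower at 20 d than at 0 d, where 4.52% of all tested genes were called lower. From 20 d to 50 d 1 was lower, against 0.254% of all tested genes, and from 0 d to 50 d 2 were lower and 1 was higher, against 11% and 15.6%. The gene lower from 20 d to 50 d was Chr5.g05826, which was also 1 of the 2 lower from 0 d to 50 d. It adjoins Chr5.g05827, and whether the models are 1 gene was not tested. Its fall therefore cannot be taken as independent of the choice of Chr5.g05827. The median log2 fold changes of the 6 were -1.06, 0.55 and -2.08, where all tested genes had 0.15, -0.06 and 0.16. Since a filter on low counts keeps genes that are high in some stage, these shares describe the 6 genes only. They did not all share a course. From 0 d to 20 d Chr5.g07018, Chr13.g23189 and Chr3.g20322 fell without overlap between the stages, of which only Chr5.g07018 was called, while the stages overlapped in the others.

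Chr5.g07018, the only other match to the pea enzyme, fell early. It lies on chromosome 5 from 27341365 to 27343047. It had 34.2, 29.2 and 19.5 FPKM at 0 d, 2.96, 6.26 and 5.65 FPKM at 20 d, and 1.61, 1.12 and 3.95 FPKM at 50 d, so that the 0 d libraries stood above all others and the later stages overlapped. By edgeR's quasi-likelihood test its log2 fold change was -2.40 from 0 d to 20 d (SE 0.48, adjusted p = 0.00436) and -3.59 over the whole period (SE 0.51, adjusted p = 0.000258), and it was -1.20 from 20 d to 50 d (SE 0.48, adjusted p = 0.196). Leaving out 0 d replicate A or B, or 20 d replicate A or C, ended the first of these calls, with an adjusted p of at most 0.021.

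The regions around Chr10.g15067 and Chr5.g07018 resembled each other. Among the 25 genes on each side, the Swissprot matches of 20 proteins occurred in both regions, of 41 distinct ones around Chr10.g15067 and 35 around Chr5.g07018. None of the other 18 family members shared more than 1 with Chr10.g15067. In the same count, Chr5.g05827 shared 11 of 25 proteins with Chr10.g13925, a GA2ox8 match on chromosome 10 with 26 in its own region, and at most 3 with any of the 17 other members, Chr5.g05826 left out because it lies in the same region. Chr10.g13925 was all but silent, with 2 counts in 0 d replicate A, 2 in 0 d replicate B and none in the other libraries.

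Chr10.g15067 stayed above Chr5.g07018 in every library. The ratio of their FPKM was 19.9, 13.2 and 21.1 at 0 d, 23.3, 19.0 and 17.1 at 20 d, and 7.8, 18.4 and 7.48 at 50 d. It was thus similar in the first 2 stages and lower at 50 d in replicates A and C but not in B. The sources used here do not say how reads that fit both genes were handled.

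The remaining tested members had low levels. Chr16.g31410, a GA2ox8 match, was the only one of them called higher: its counts were 2, 0 and 1 at 0 d, 1, 4 and 2 at 20 d, and 22, 20 and 33 at 50 d, where its FPKM were 1.15, 1.18 and 2.3. The counts at 50 d stood 21.9-fold above those at 0 d for equal library sizes (95% counting interval 7.21 to 109), and edgeR's quasi-likelihood test gave an adjusted p of 0.0024. Leaving out 0 d replicate B or C ended this call, and the range over the alternatives was 0.0005 to 0.0152. From 20 d to 50 d its log2 fold change of 3.20 did not pass (edgeR adjusted p = 0.037).

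Chr13.g23189, a GA2ox2 match, had 10, 19 and 11 counts at 0 d, 1, 1 and 0 at 20 d, and 3, 4 and 1 at 50 d. With at most 0.877 FPKM in any library it stayed under the expression limit and was not called, although its edgeR adjusted p from 0 d to 20 d was 0.00601 and the counts were 20.2-fold lower (95% counting interval 5.25 to 173). Chr11.g10316 had mean FPKM of 0.692 ± 0.479, 0.515 ± 0.0637 and 1.07 ± 0.1 over the stages, and Chr3.g20322 had 1.17 ± 0.432, 0.319 ± 0.0841 and 0.348 ± 0.288 (SD, n = 3). Neither was called in any comparison. The 50 d libraries of Chr11.g10316 lay above those of 20 d without overlap, with a log2 fold change of 1.04 (SE 0.60, edgeR adjusted p = 0.398). The 0 d libraries of Chr3.g20322 lay above those of both later stages without overlap. Its log2 fold changes were -1.78 from 0 d to 20 d (SE 0.70, edgeR adjusted p = 0.0765) and -1.72 from 0 d to 50 d (SE 0.70, edgeR adjusted p = 0.064).

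Chr10.g15067 dominated the family's summed level. The 20 genes together had 735, 434 and 442 FPKM at 0 d, 85.1, 141 and 113 FPKM at 20 d, and 20.0, 27.6 and 41.5 FPKM at 50 d. Chr10.g15067 alone made up 91.6 ± 2.11% of this sum at 0 d, 83.7 ± 2.39% at 20 d and 69.5 ± 6.13% at 50 d (SD, n = 3), and the ranges of the 3 stages did not overlap. Chr5.g05827 contributed 1.11 ± 0.237%, 4.36 ± 1.54% and 0.908 ± 0.516%, its share being highest at 20 d, when Chr10.g15067 had already fallen.

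Without both genes the other 18 summed to 38.1 ± 10.9, 13.5 ± 3.83 and 8.56 ± 2.63 FPKM (SD, n = 3). With Chr5.g07018 and Chr5.g05826 removed too, a choice made after their values were seen, 3.26 ± 0.617 FPKM remained at 0 d, 2.64 ± 0.731 FPKM at 20 d and 5.94 ± 1.19 FPKM at 50 d. The genes removed were the most abundant of those seen to fall, so a sum without them had to lose most of the fall. Chr13.g23189 and Chr3.g20322, which were also lower after 0 d, stayed in it. The other 16 lay between 5.07 and 7.3 FPKM at 50 d, above the 1.81 to 3.85 FPKM of the earlier libraries, and this sum was not tested.

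**Figure D3:**
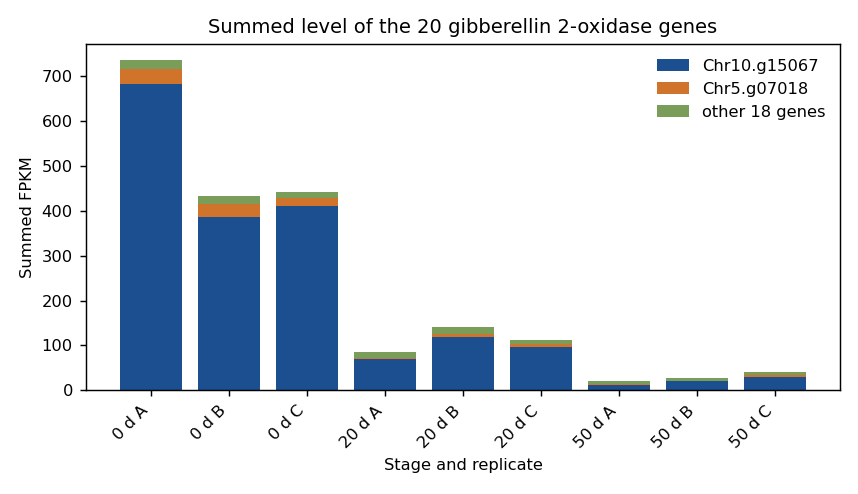
Summed FPKM of the 20 gibberellin 2-oxidase genes in each of the 9 libraries (stage and replicate), with the part of Chr10.g15067, of Chr5.g07018 and of the other 18 genes stacked in each bar. The sums of 434 to 735 at 0 d are almost wholly Chr10.g15067, and at 50 d, when the sums are 20.0 to 41.5, its part is 62.7 to 74.6%.

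The list of other gibberellin genes, formed from their Swissprot names, held 85 genes of synthesis, further deactivation, perception and signalling, of which 35 passed the filter. In it 6 were called higher and none lower at 20 d than at 0 d, where 7.88% and 4.52% of all tested genes were called. From 20 d to 50 d 1 was higher, against 1.4%, and from 0 d to 50 d 10 were higher and 1 was lower, against 15.6% and 11%. Before adjustment, 20, 8 and 17 of the 35 had an edgeR p below 0.05, and DESeq2 called 10, 3 and 13 genes of the list. The median log2 fold changes of the 35 were 0.77, -0.13 and 0.70, and 0.72, -0.13 and 0.70 with genes that had no count in a stage set at their bound. Of the 35, 4 had no count at 0 d, namely 3 gibberellin 3-oxidases and a GID1C match, and all were among the 10 called higher at 50 d. They passed the filter only through the later stages, so none could be called lower than at 0 d. These shares therefore describe the 35 genes only.

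Early steps of GA synthesis were represented by 1 DEG each in 2 of 4 roles. Chr11.g13139, a match to ent-copalyl diphosphate synthase, which makes the first committed precursor, had 0.166 ± 0.0427, 0.533 ± 0.124 and 3.42 ± 0.939 FPKM over the stages (SD, n = 3). It was up-regulated from 20 d to 50 d, when Chr5.g05827 fell, with a log2 fold change of 2.65 (SE 0.43, edgeR adjusted p = 0.00527), a call that ended when any 50 d library, 0 d replicate A or 20 d replicate A or C was left out or the 2 stages were fitted alone. Over the whole period its log2 fold change was 4.38 (SE 0.48, edgeR adjusted p = 5.93e-05). Chr16.g28723, a match to ent-kaurenoic acid oxidase, which makes the first GA, had 0.477 ± 0.307 FPKM at 0 d, 6.30 ± 0.472 FPKM at 20 d and 7.71 ± 4.46 FPKM at 50 d. Its rise came in the first interval, with a log2 fold change of 3.79 (SE 0.63, edgeR adjusted p = 0.00179), which did not pass without 0 d replicate B or C. The 1 tested gene of ent-kaurene synthase and the 5 of ent-kaurene oxidase were not called by edgeR. Of these 6, 2, 3 and 1 had an unadjusted edgeR p below 0.05 in the 3 comparisons, and DESeq2 called the ent-kaurene synthase gene from 20 d to 50 d.

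The gibberellin 20-oxidases, which act late in GA synthesis, went both ways. Chr1.g56784 had 1.14, 0.836 and 0.900 FPKM at 0 d, 6.30, 1.72 and 4.64 FPKM at 20 d, and 2.45, 1.91 and 1.68 FPKM at 50 d. It was higher at 20 d than at 0 d by 2.22 on the log2 scale (SE 0.49, edgeR adjusted p = 0.00695), and this call was lost under 9 of 16 alternatives, both limma fits included. Chr7.g31979 had 5.64, 1.27 and 8.53 FPKM at 0 d, 1.19, 1.53 and 0.939 FPKM at 20 d, and 0.803, 0.253 and 0.119 FPKM at 50 d. It was lower at 50 d than at 0 d by edgeR's quasi-likelihood test, with a log2 fold change of -3.57 (SE 0.78, adjusted p = 0.00348), and leaving out 0 d replicate A or C or 50 d replicate B ended the call.

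Of the gibberellin 3-oxidases, which make the bioactive hormone, 5 of 10 were tested and 3, all without a count at 0 d, were higher at 50 d than at 0 d. These 3 passed the filter only through the later stages, so a call in the other direction was not possible. Chr17.g26837 had no count in any 0 d library, 17, 4 and 25 counts at 20 d and 18, 34 and 17 counts at 50 d. Against a floor of 3 counts over the 0 d libraries it was at least 15.2-fold higher at 20 d and at least 20.2-fold higher at 50 d. Chr17.g26834, close by on chromosome 17 with the same match, also had no count at 0 d, then 19, 6 and 24 counts at 20 d and 19, 23 and 15 counts at 50 d, at least 16.1-fold and 16.6-fold higher. By edgeR's test the adjusted p at 50 d was 0.00153 for Chr17.g26837 and 0.00109 for Chr17.g26834. The third, Chr9.g45229, named after its values were seen, came up later: it had 0 counts at 0 d, 2, 1 and 2 at 20 d, and 29, 52 and 18 at 50 d, at least 28.9-fold higher than at 0 d (edgeR adjusted p = 0.000448). Chr17.g26837 and Chr17.g26834 had few counts in 20 d replicate B, and since they have the same match, how reads were divided between them is not known.

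Among the 5 tested genes listed as other deactivating enzymes, Chr7.g33962 rose from 0 d to 20 d, when Chr10.g15067 fell, but not from 20 d to 50 d. It is a cytochrome P450 of the CYP714 group, to which the GA-inactivating EUI protein of rice belongs. It had 1.02, 0.884 and 0.842 FPKM at 0 d, 4.60, 3.97 and 3.49 FPKM at 20 d, and 2.50, 2.60 and 2.76 FPKM at 50 d, with no overlap between stages. Its log2 fold change was 2.21 from 0 d to 20 d (SE 0.34, edgeR adjusted p = 0.00125) and 1.58 from 0 d to 50 d (SE 0.34, edgeR adjusted p = 0.00317). From 20 d to 50 d the value was -0.64 (SE 0.32) and was not called (edgeR adjusted p = 0.318). The call from 0 d to 50 d ended without 0 d replicate B or C and without 50 d replicate A or B. It also ended under limma-trend on log2(FPKM + 1). Chr7.g33962 was listed by its name alone, and whether its product deactivates GAs was not tested.

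In GA perception, Chr12.g35281, a match to the receptor GID1C, had no count at 0 d, 3, 2 and 0 counts at 20 d and 30, 15 and 10 counts at 50 d. It was at least 16.1-fold higher at 50 d than at 0 d (edgeR adjusted p = 0.00267), a call lost when any 0 d library or 50 d replicate A was left out and under limma-trend on log2(FPKM + 1). DELLA proteins are the repressors that the GA-bound receptor marks for destruction, and 2 of the 6 tested genes with that name were DEGs by edgeR, where DESeq2 called 4 from 0 d to 20 d and 4 from 0 d to 50 d. Chr17.g27556 had 10.7 ± 0.794, 51.5 ± 17.5 and 29.2 ± 12.3 FPKM, and Chr2.g41461 had 1.73 ± 0.553, 13.1 ± 5.85 and 18.5 ± 5.61 FPKM (SD, n = 3). From 0 d to 20 d their log2 fold changes were 2.35 (SE 0.39, edgeR adjusted p = 0.00171) and 3.00 (SE 0.45, edgeR adjusted p = 0.0011). The first was lost when any 0 d library was left out, the second without 0 d replicate A. Chr17.g25753 is a match to the F-box protein SNE (SNEEZY), which targets DELLA proteins in Arabidopsis. The gene had 0, 0 and 3 counts at 0 d, 12, 15 and 11 at 20 d, and 9, 21 and 23 at 50 d. Its counts were 15.5-fold higher at 50 d than at 0 d (95% counting interval 5.02 to 77.5, edgeR adjusted p = 0.00827), and leaving out any of 6 libraries ended the call. Its log2 fold change of 3.50 from 0 d to 20 d did not pass (edgeR adjusted p = 0.0218), but DESeq2 and both limma fits called it.

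**Figure D4:**
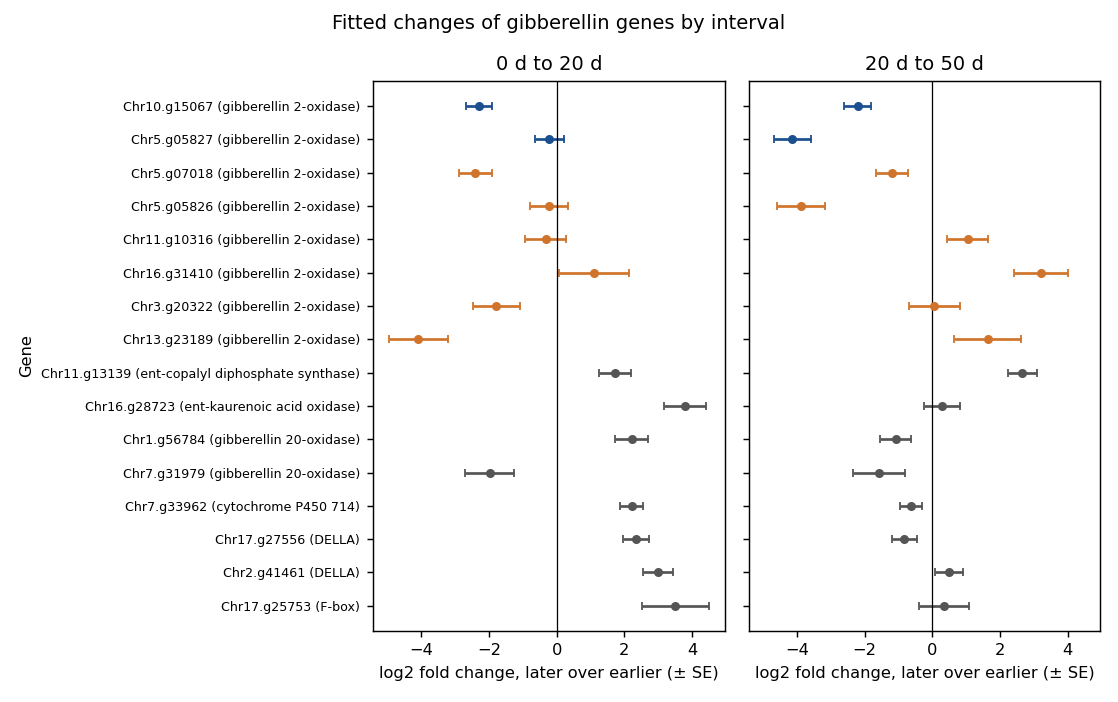
Log2 fold changes with their SE from the edgeR fit for the 0 d to 20 d interval (left) and the 20 d to 50 d interval (right), for Chr10.g15067 and Chr5.g05827 (blue), the 6 other tested gibberellin 2-oxidase genes (orange) and the named DEGs of the pathway list (grey) that had a count at 0 d. Chr10.g15067 lies at -2.29 and -2.21, Chr5.g05827 at -0.22 and -4.14, and Chr5.g05826 beside the latter at -0.22 and -3.88.

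Of the 2 genes on each side of Chr10.g15067, those before it rose from 0 d to 20 d, while it fell. Of these, Chr10.g15068, a match to a vacuolar cationic amino acid transporter at 14371 bases, and Chr10.g15069, a match to ubiquitin hydrolase 15 at 32110 bases, were up-regulated from 0 d to 20 d. Their log2 fold changes were 2.32 (SE 0.51, edgeR adjusted p = 0.00716) and 1.88 (SE 0.43, edgeR adjusted p = 0.00793), and each call was lost under 11 of 16 alternatives. In the interval from 20 d to 50 d, when Chr10.g15067 fell further, they were 0.22 and 0.25 and were not called (edgeR adjusted p = 0.861 and 0.818). From 0 d to 50 d the values were 2.54 and 2.13, with edgeR adjusted p of 0.00225 and 0.0022. Leaving out any 0 d library ended this call for Chr10.g15068, and leaving out 0 d replicate A or C ended it for Chr10.g15069, with adjusted p of at most 0.0116 and 0.019. After it, Chr10.g15066, a match to the AP2-like factor AIL6, had a log2 fold change of -1.78 from 0 d to 50 d (SE 0.55) that was not called (edgeR adjusted p = 0.0219) but passed without 20 d replicate B (-1.83, edgeR adjusted p = 0.00647) and by DESeq2, and Chr10.g15065, a match to CDC73, was not called in any comparison.

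Of the 2 genes on each side of Chr5.g05827, Chr5.g05826 fell at the same step, as given above. Chr5.g05828, a match to a regulator of pyruvate phosphate dikinase at 28130 bases, had a log2 fold change of -1.74 from 0 d to 50 d (SE 0.36, edgeR adjusted p = 0.00267), and leaving out 0 d replicate C or 50 d replicate A or B ended that call. Its values were -0.34 (SE 0.35) from 0 d to 20 d, with overlap, and -1.40 (SE 0.36) from 20 d to 50 d, without overlap. The latter was not called by edgeR (adjusted p = 0.0448) but was called by DESeq2 (-1.37, adjusted p = 0.0095). Chr5.g05829 and the chaperone gene Chr5.g05825 were not called in any comparison, but without 20 d replicate B, a library that stood apart, Chr5.g05825 was called lower from 0 d to 20 d (log2 fold change -1.17, edgeR adjusted p = 0.00704, against -0.55 and 0.261 with it). Chr5.g05825, the next gene on that strand, had mean FPKM of 46.6 ± 7.36, 29.9 ± 15.6 and 29.3 ± 5.24 (SD, n = 3), and its log2 fold change from 20 d to 50 d was -0.06 (SE 0.36, edgeR adjusted p = 0.96).

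Finally, tested genes were ranked by the Pearson correlation of their log2 CPM with each gene over the 9 libraries, as a description of the points, which share 3 stages. The nearest to Chr10.g15067 were Scaffold7.g27918, a match to the auxin-responsive protein SAUR36 (r = 0.997), Chr12.g35468, a match to basic 7S globulin (0.994), Chr11.g09967 (0.993), Chr12.g35667 (0.992) and Chr2.g42030, a match to the auxin carrier-like protein PIN-LIKES 5 (0.992). Scaffold7.g27918 had 95.1, 64.0 and 61.2 FPKM at 0 d, 14.3, 26.0 and 16.8 FPKM at 20 d, and 3.42, 4.44 and 5.77 FPKM at 50 d. In it as in Chr10.g15067, replicate A was highest at 0 d, B at 20 d and C at 50 d, and the same libraries had the highest FPKM summed over all genes of their stage. In TMM-scaled CPM the highest library of each stage was the same for both genes. Of 28338 other tested genes, 583 correlated with Chr10.g15067 above 0.95.

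Only 31 genes correlated with Chr5.g05827 above 0.95. The nearest were Chr16.g30730, a match to the transporter NPF2.13 (r = 0.983), Chr1.g58320 (0.975), Chr12.g35960, a match to a mitochondrial succinate-fumarate transporter (0.975), Chr10.g14640 (0.975) and Chr5.g09552, a match to oil body-associated protein 1A (0.973). Chr16.g30730 had mean FPKM of 23.5 ± 1.12 at 0 d, 16.7 ± 2.03 at 20 d and 3.12 ± 0.462 at 50 d (SD, n = 3). Like Chr5.g05827 it kept most of its level until 20 d and lost it by 50 d. Counts of 1 to 3 per library at 50 d limit how closely any gene can be matched to Chr5.g05827.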

How the data were processed

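Gene-level values of 9 libraries were taken from the authors' deposited table. Its counts are whole numbers of reads per gene as deposited by the authors, who aligned reads with HISAT2 to the Pyrus betulifolia genome. Its FPKM were computed by the authors from those counts and the gene length, with library sizes that differ from the count totals. Neither the counting tool nor tool versions are given in the sources used here. The table's stage means, fold changes and p-values of the authors' own comparisons were not used.

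Stages came from the sample labels. In R 4.3.3, edgeR 4.0.16 fitted the stage as the only factor to the counts, with TMM scaling, filterByExpr and the quasi-likelihood test, and p-values were adjusted by Benjamini-Hochberg over 28339 genes. The fit was tested on simulated data. Alternatives were DESeq2 1.42.0, limma 3.58.1 on log2(FPKM + 1) and log2(FPKM + 0.1), RLE factors, no filter, no FPKM limit, an adjusted p below 0.05, 2-stage fits, a replicate block and each library left out. Both genes and all lists were chosen with earlier results of these data known. Named were all tested gibberellin 2-oxidases, the 2 most expressed DEGs of each pathway role, 2 neighbours on each side (including Chr5.g05826) and the 5 most alike genes (prior count 2). Raw reads, hormone contents and qRT-PCR values were not analysed here. Tables and figures used Python 3.11.15 with pandas 2.3.3, numpy 2.4.6, scipy 1.17.1 and matplotlib 3.10.9.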

Additional observations from a re-analysis of the deposited data

How the results depend on the processing

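Both genes kept the direction of all 3 fold changes under the 16 alternatives. The values of Chr10.g15067 moved by less than the replicate spread, from -2.58 to -2.09 (0 d to 20 d), -2.45 to -1.96 (20 d to 50 d) and -4.85 to -4.24 (0 d to 50 d). Chr5.g05827 from 20 d to 50 d was -2.17 on log2(FPKM + 1), whose pseudocount understates changes of low genes, -3.81 on log2(FPKM + 0.1), and -4.38 to -3.79 with 1 library left out. From 0 d to 50 d it was -2.42 on log2(FPKM + 1) and -4.70 to -4.0 with 1 library left out.

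The other gibberellin 2-oxidases called from 0 d to 20 d numbered 0 with the replicate block, 2 without the FPKM limit and 0 to 1 with 1 library left out, against 1. From 20 d to 50 d they numbered 2 by limma on log2(FPKM + 1), 2 at an adjusted p below 0.05, 0 in the 2-stage fit, 0 with the block and 0 with any 1 library left out, against 1 (3 at an unadjusted p below 0.05, and 1 by DESeq2). From 0 d to 50 d the other gibberellin 2-oxidases called numbered 4 by DESeq2, 4 without the count filter, 2 with the block and 2 to 4 with 1 library left out, against 3. Those called higher among them numbered 2, 2, 0 and 0 to 2, against 1. Pathway genes called from 0 d to 20 d numbered 10 by DESeq2, 10 at an adjusted p below 0.05 and 2 to 8 with 1 library left out, against 6. From 20 d to 50 d they numbered 2 without the count filter, 3 by DESeq2, 2 by limma with either pseudocount, 3 at an adjusted p below 0.05, 0 in the 2-stage fit, 0 with the block and 0 to 1 with 1 library left out, against 1. From 0 d to 50 d they numbered 7 with the block and 7 to 13 with 1 library left out, against 11. The causes were not tested.

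The labels do not say whether the letters A, B and C pair the libraries across stages. Deviations of same-letter libraries correlated at -0.561 to 0.552, and those of libraries with different letters at -0.62 to 0.723. With so few libraries these values show no pairing but cannot exclude it, so the replicate block is given here only. With 3 libraries a stage, the absence of a call does not show that a gene stayed constant, and 1 to 3 counts per library limit Chr5.g05827 at 50 d.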
